A study of Mus musculus with 9 samples.

Results

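The Snail, Twist and Zeb genes encode transcription factors that repress epithelial genes and are used as regulators of epithelial-mesenchymal transition. The 6 genes Snai1, Snai2, Twist1, Twist2, Zeb1 and Zeb2 were read out of a table of 23337 genes by a list of symbols, which was drawn up with earlier results of these data known, and all 6 had counts in every library. The cells were immortalised mouse embryonic fibroblasts (MEFs) of C57BL/6 x 129 background that lack Cebpb, the gene of the transcription factor C/EBPβ. They were stably transfected with an empty vector (EV), with rat C/EBPβ-LAP or with rat C/EBPβ-LIP, and selected with Zeocin. LAP is the long isoform of C/EBPβ and carries its activation domains, while LIP is the truncated isoform, which keeps the DNA-binding and dimerisation domain. The Cebpb knockout is shared by all groups, EV included, and the isoforms were driven from plasmids, so the comparisons concern single isoforms added to knockout cells and not their balance in normal fibroblasts. Each group had 3 libraries of total mRNA, 9 in all. Nothing in the labels says that the libraries of a group came from separate cultures or separate transfections, so p-values measure the spread between these libraries only.

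Snai1 (Snail) and Snai2 (Slug) are zinc finger proteins that bind E-boxes in the promoters of epithelial genes such as Cdh1 and repress them together with histone deacetylases. Twist1 and Twist2 are basic helix-loop-helix proteins that bind E-boxes as dimers with the E proteins Tcf3, Tcf4 and Tcf12, and the Id proteins compete for those partners. Zeb1 and Zeb2 carry zinc finger clusters and a homeodomain, recruit CtBP corepressors and are held down by the miR-200 family in epithelial cells. In mesenchymal cells such as fibroblasts these genes are normally active, so an MEF is a setting in which loss of their mRNA can be read as well as gain.

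On the mouse assembly GRCm38.p6, Snai1 lies at chr2:167538195-167542814 on the plus strand, 146 kb before Cebpb on the same chromosome, with 7 annotated genes in between. Snai2 lies at chr16:14705852-14709395, Twist1 at chr12:33957671-33959831 and Twist2 at chr1:91801461-91848034, all on the plus strand. Zeb2 lies at chr2:44983512-45117442 on the minus strand. RefSeq promoter windows of the same assembly, from 250 bases before to 50 bases after a start site, were given for 4 members. They were searched on both strands for TTGCNNAA, the C/EBP-type site (TTNNGCAA on the other strand), for its palindrome TTGCGCAA, a special case of the first, for CAGGTG, the E-box that Snail and Zeb proteins bind (CACCTG on the other strand), and for the E-box CATATG bound by Twist. The 3 windows with a match are shown 5′ to 3′ on the gene's own strand, because they hold letters that C/EBPβ, Snail or Zeb proteins are known to bind, with matches in capitals. The Zeb2 window is that of the most upstream of its 4 start sites. Their coordinates are chr2:167537945-167538244 for Snai1, chr1:91801211-91801510 for Twist2 and chr2:45117393-45117692 for Zeb2.
Snai1: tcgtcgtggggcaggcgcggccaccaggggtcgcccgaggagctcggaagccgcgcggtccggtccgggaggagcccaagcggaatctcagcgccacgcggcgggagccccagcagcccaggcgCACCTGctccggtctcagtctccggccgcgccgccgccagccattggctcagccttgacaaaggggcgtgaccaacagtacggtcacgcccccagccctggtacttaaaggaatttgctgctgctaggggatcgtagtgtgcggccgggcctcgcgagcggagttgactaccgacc
Twist2: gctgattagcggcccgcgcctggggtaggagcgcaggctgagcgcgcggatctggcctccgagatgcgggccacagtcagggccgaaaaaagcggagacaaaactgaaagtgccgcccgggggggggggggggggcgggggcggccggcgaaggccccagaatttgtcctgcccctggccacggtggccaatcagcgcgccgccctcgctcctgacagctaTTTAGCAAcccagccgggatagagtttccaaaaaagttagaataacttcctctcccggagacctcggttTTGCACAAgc
Zeb2: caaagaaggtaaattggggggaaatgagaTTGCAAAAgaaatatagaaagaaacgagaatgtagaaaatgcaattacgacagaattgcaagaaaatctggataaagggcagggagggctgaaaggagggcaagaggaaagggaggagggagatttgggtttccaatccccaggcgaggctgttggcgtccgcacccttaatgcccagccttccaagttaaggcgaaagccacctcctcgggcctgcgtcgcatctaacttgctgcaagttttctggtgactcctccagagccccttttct

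The Snai1 window held 1 E-box, CACCTG, starting at position -126 from the start site, and no C/EBP-type match. The Twist2 window held 2 C/EBP-type matches, TTTAGCAA and TTGCACAA, the first starting at position -29 and the second at position 41. The Zeb2 window held the C/EBP-type match TTGCAAAA, starting at position -221. Of the 32851 mouse windows of this length, 10.8% held a C/EBP-type match, 0.183% its palindrome, 20.2% the Snail and Zeb E-box and 3.91% the Twist E-box. In the window of Twist1 and in the other 3 windows of Zeb2 these letters did not occur. A match describes the sequence and was not tested for binding.

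The counts on genes summed to 24839139 to 33522082 in a library, and 3 counts stood for 0.0895 to 0.121 CPM, that is counts scaled to a common library size, by edgeR's TMM method in the values below. The floors cover counting error only. The members, with 236 to 4077 counts in each library, lay well above the floor. Cebpb itself was counted at 28.7 ± 2.97 CPM in EV, 29.6 ± 3.90 CPM in LAP and 31.1 ± 2.59 CPM in LIP (SD, n = 3). The counts on Cebpb therefore showed neither the knockout nor the rat transgenes, and EV, LAP and LIP name the libraries as labelled. Of 10 fibroblast markers, 8 had a mean above 1 CPM, and their summed level was 33339 to 38004 CPM in EV, 24581 to 41316 CPM in LAP and 14527 to 28775 CPM in LIP. The 8 epithelial markers, 5 of them above 1 CPM and led by keratins, summed to 1159 to 1317 CPM in EV, 951 to 1520 CPM in LAP and 1077 to 2106 CPM in LIP. Endothelial, leukocyte and muscle markers summed to at most 8.88 CPM in any library, with Pecam1, Ptprc and Myod1 at 0. The neural and glial markers summed to 54.5 to 98.01 CPM in a library, with Rbfox3 at 0. Some genes with several RefSeq transcripts had counts that are low for fibroblasts, such as Gapdh with a mean of 3554 and Myc with 0 against 96926 for Actb, which has 1 transcript. Others with several transcripts had high counts, such as Fn1 with 7 and a mean of 240885, and Lox with 3 and 61520. RefSeq now lists 1 curated transcript each for Snai1, Snai2, Twist1 and Twist2, 3 for Zeb1 and 6 for Zeb2. The example genes were chosen after their values were seen, and the part of this pattern in the levels below was not tested.

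All 6 members were expressed in the empty vector cells. Divided by the length of the longest RefSeq transcript, their levels in EV were 31.7 CPM per kb for Snai1, 31.2 for Twist1, 23.9 for Twist2, 19.2 for Snai2, 19.0 for Zeb2 and 10.1 for Zeb1 (means, n = 3). Snai1 ranged from 30.2 to 33.5 CPM per kb and lay inside the range of Twist1, 25.7 to 39.6, so this pair had no order, and Twist2 (18.3 to 28.6), Snai2 (18.6 to 19.9) and Zeb2 (17.7 to 21.2) also overlapped one another. Zeb1, at 9.27 to 11.0 CPM per kb, lay below all the others. In LIP the order was Twist1 at 30.5, Snai1 at 24.3, Twist2 and Zeb2 at 14.3 each, Zeb1 at 10.3 and Snai2 at 7.11 CPM per kb, so that on this scale Snai2 had the lowest mean in LIP, although its range of 3.77 to 11.1 met that of Zeb1, 9.34 to 11.9. Dividing by the union of all exons in place of the longest transcript changed these levels in EV to 10.01 CPM per kb for Twist2, 5.72 for Zeb1 and 5.36 for Zeb2, and in LIP to 5.97, 5.80 and 4.02, all under the 7.11 of Snai2, so the order of Snai2, Twist2 and the Zeb genes depends on the length used. Among the relatives of these genes, Snai3 had 1 to 10 counts in every library, while Hand2 and Scx, from the wider Twist family, had 4.597 and 11.5 CPM in EV.

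**Figure D1:**
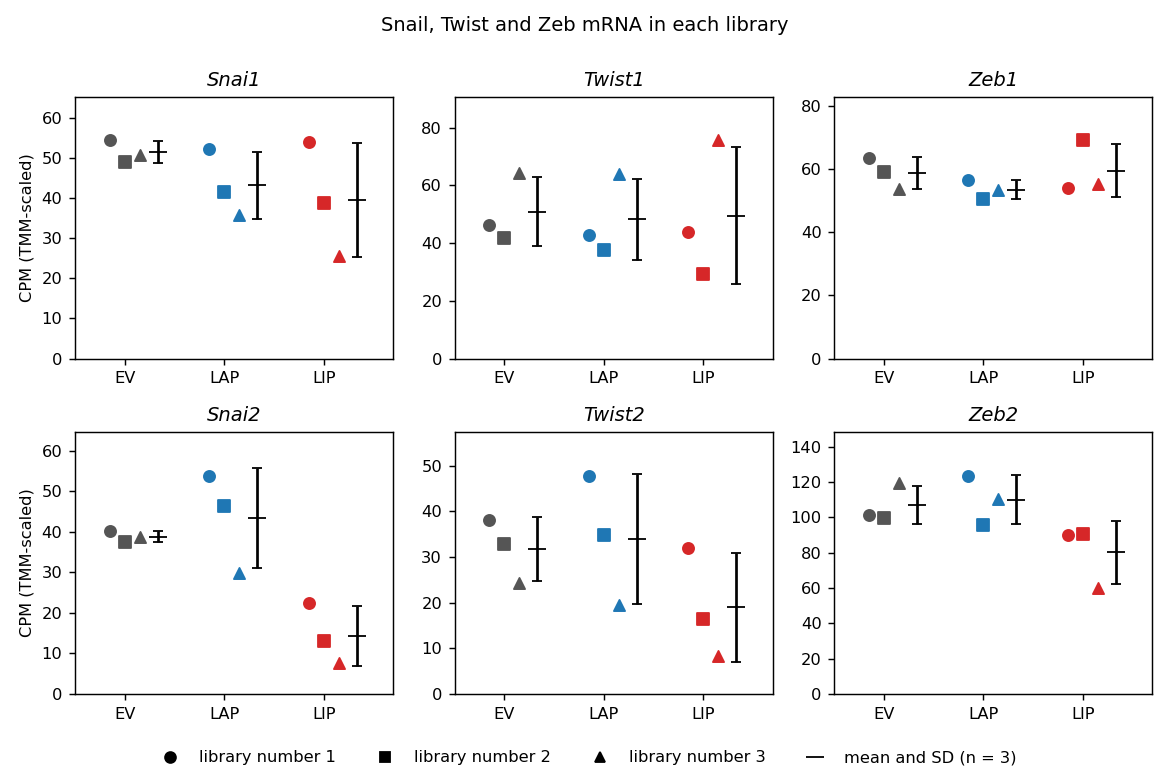
Level of each of the 6 genes in each library, in CPM after TMM scaling, with the mean and SD (n = 3) to the right of each group and marker shape giving the library number from the labels. The 3 LIP libraries lie below all EV and LAP libraries for Snai2 (7.62 to 22.4 CPM in LIP) and Zeb2, while for Twist1 library 3 is the highest in each group.

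Snai2 was the member that differed most with LIP. Its level was 40.2, 37.6 and 38.8 CPM in the EV libraries 1, 2 and 3, against 22.4, 13.1 and 7.62 CPM in LIP. All LIP libraries lay below all EV libraries, and the LIP libraries differed among themselves far more than the EV libraries did. In the comparison of LIP with EV, Snai2 in LIP was at 36.9% of EV, a log2 fold change of -1.44 (SE 0.30, 95% interval -2.08 to -0.79). It did not pass the threshold over all genes (adjusted p = 0.0662 by edgeR's quasi-likelihood test, adjusted after Benjamini and Hochberg over all genes), and its p ranked among the lowest 0.560% of the genes tested. The exact permutation test of its CPM gave p = 0.1, the smallest that 3 libraries against 3 allow. Leaving out LIP library 3 gave a smaller difference of -1.12 with an adjusted p of 0.0152, and leaving out LIP library 1 a larger one of -1.89 with an adjusted p of 0.00984, both past the threshold in edgeR's quasi-likelihood test. Without LIP library 2 or any 1 of the EV libraries Snai2 did not pass, with an adjusted p of up to 0.214 in that test.

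Against LAP the difference of Snai2 passed the threshold. The LAP libraries held 53.9, 46.4 and 29.9 CPM, all above the highest LIP library. In LIP, Snai2 fell to 33.6% of its LAP level, a log2 fold change of -1.58 (SE 0.32, 95% interval -2.24 to -0.91, adjusted p = 0.0235 by edgeR's quasi-likelihood test). The call rests on the library set and on the filter for low counts. The adjusted p of edgeR's quasi-likelihood test rose to 0.138 without LAP library 2, to 0.0596 without LIP library 2, to 0.200 with the filter filterByExpr and to 0.270 with at least 10 counts required in every library, at log2 fold changes of -1.55, -1.53, -1.58 and -1.58. In bulk RNA, fewer cells with Snai2 and less Snai2 mRNA per cell cannot be told apart, here and in the results that follow.

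Snai1, the paralog of Snai2, showed no difference of that size. It was counted at 54.3, 48.9 and 50.8 CPM in EV, 52.2, 41.4 and 35.7 CPM in LAP and 54.0, 38.7 and 25.5 CPM in LIP. Library 1 was alike in the 3 groups, and library 3 of LIP was the lowest of all. The log2 fold change of LIP against EV was -0.38 (95% interval -0.88 to 0.11, adjusted p = 0.599) and against LAP -0.11 (95% interval -0.65 to 0.43, adjusted p = 0.915, both by edgeR's quasi-likelihood test). The groups overlapped in both comparisons. The difference against EV was -0.14 without LIP library 3 and -0.67 without LIP library 1.

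Because both Snail genes shift with library number, their ratio within a library was read as well. Snai2 made up 42.5%, 43.5% and 43.3% of the counts on Snai1 and Snai2 in EV, 50.8%, 52.8% and 45.5% in LAP and 29.3%, 25.4% and 23.0% in LIP. The exact 95% binomial intervals, which cover counting error only, were widest in LIP library 3, from 20.4% to 25.7%. The shares of the 3 groups did not overlap and averaged 43.1% ± 0.517 for EV, 49.7% ± 3.78 for LAP and 25.9% ± 3.19 for LIP (SD, n = 3). Raw counts were used without correction for length, which is the same in all libraries.

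**Figure D2:**
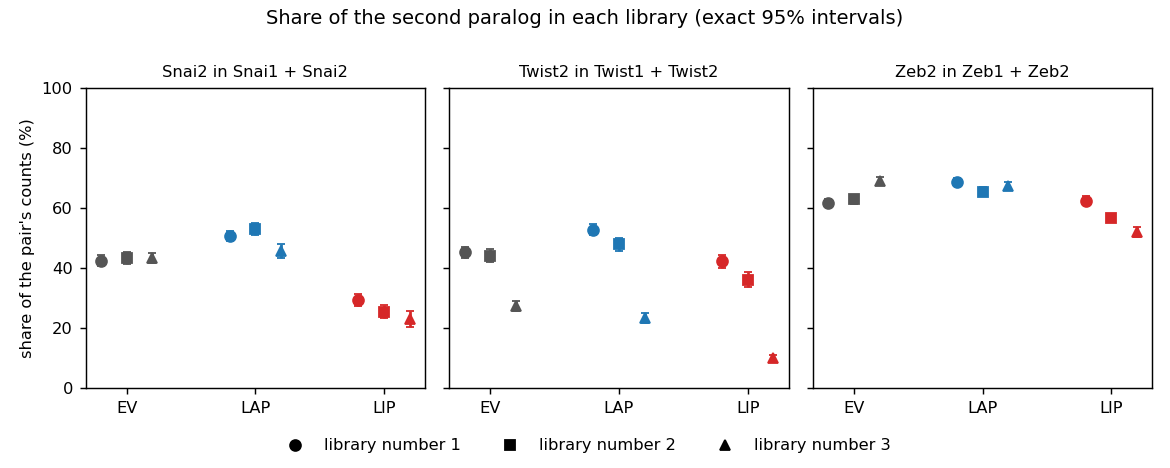
Share of the second paralog in the counts of each pair, in percent, for each library with its exact 95% interval, by group, with marker shape for library number. Snai2 makes up 23.0% to 29.3% of its pair in LIP against 42.5% to 52.8% in EV and LAP, while the Twist2 share spans 9.92% to 52.7% with library 3 lowest in each group.

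Twist2 followed Snai2 in direction but with overlapping groups. Its level was 38.1, 32.95 and 24.3 CPM in EV, 47.8, 34.8 and 19.4 CPM in LAP and 32.04, 16.5 and 8.33 CPM in LIP. In every group library 1 was the highest and library 3 the lowest, and each LIP library lay below the EV and the LAP library of the same number. The log2 fold change of LIP against EV was -0.75 (SE 0.36, 95% interval -1.54 to 0.04, adjusted p = 0.486), and against LAP it was -0.83 (SE 0.37, 95% interval -1.60 to -0.05, adjusted p = 0.488, both by edgeR's quasi-likelihood test). Across genes, LIP and LAP libraries of the same number deviated together, and with the library number as a block in edgeR's quasi-likelihood test Twist2 fell by 0.93 on the log2 scale from LAP to LIP (SE 0.19, adjusted p = 0.000162). This pairing comes from the numbers in the labels and the data, as no source says what libraries of the same number share. Without the block, the log2 fold change was -0.38 against EV and -0.47 against LAP when LIP library 3 was left out, -1.35 and -1.44 when LIP library 1 was left out, and -0.48 against LAP without LAP library 1, none past the threshold.

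Twist1, the other Twist gene, differed between groups by less than its spread within them. It was counted at 46.2, 41.9 and 64.4 CPM in EV, 42.9, 37.8 and 64.1 CPM in LAP and 43.9, 29.2 and 75.7 CPM in LIP. Library 3 was the highest and library 2 the lowest in all 3 groups. The log2 fold change of LIP was -0.04 against EV (95% interval -0.66 to 0.59) and 0.05 against LAP (95% interval -0.56 to 0.66). The first interval allows 0.633 to 1.503 times the EV level, so a change of Twist1 within those bounds is compatible with the data at this spread. The Twist2 share of the pair was 9.92% in LIP library 3 and 23.3% in LAP library 3, against 52.7% in LAP library 1. Library by library, the share in LIP lay 10.6, 11.8 and 13.3 percentage points under that in LAP of the same number, and it was also under that in EV of the same number in all 3.

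Among the Zeb genes, Zeb2 was lower in each LIP library than in every EV library, by a small amount, and Zeb1 was not. Zeb2 was counted at 101.6, 99.8 and 119.4 CPM in EV, 123.7, 95.9 and 110.2 CPM in LAP and 90.05, 90.7 and 59.8 CPM in LIP. The highest LIP library was within 10 CPM of the lowest EV library, and LIP library 3 stood apart below. The log2 fold change of LIP was -0.42 against EV (SE 0.18, 95% interval -0.81 to -0.02, adjusted p = 0.435) and -0.44 against LAP (SE 0.23, 95% interval -0.91 to 0.04, adjusted p = 0.594, both by edgeR's quasi-likelihood test). Without LIP library 3 the difference was -0.23 against EV and -0.26 against LAP. The exact permutation test of the CPM gave p = 0.1 in both comparisons.

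Zeb1, on the plus strand at chr18:5591327-5775468 of the same assembly, varied between 50.6 and 69.1 CPM over the 9 libraries, with 63.6, 59.0 and 53.7 CPM in EV, 56.5, 50.6 and 53.3 CPM in LAP and 54.2, 69.1 and 55.3 CPM in LIP. LIP library 2 was the highest of all and the other LIP libraries lay among those of EV. The log2 fold change of LIP was 0.02 against EV (95% interval -0.32 to 0.36) and 0.17 against LAP (95% interval -0.26 to 0.60). The share of Zeb2 in the counts on both genes was 64.4% ± 3.97 in EV, 67.2% ± 1.61 in LAP and 57.0% ± 5.25 in LIP (SD, n = 3), with LIP library 1 inside the range of EV and all LIP libraries (52.0% to 62.4%) under all LAP libraries (65.4% to 68.6%). Gm10125, which overlaps the start of Zeb1, had at most 6 counts in a library, and Mir5129 within Zeb2 had 0. The strand setting of the counting is not given in the sources used here, and reads from overlapping genes cannot be told apart without it. Zeb2os, which also overlaps Zeb2, and Gm46117 in Twist2 were not analysed here.

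Counted over the 6 genes, 0 passed the threshold in LIP against EV, where 0.396% of 18203 genes did, by edgeR's quasi-likelihood test. At an unadjusted p under 0.05, 2 of 6, Snai2 and Zeb2, were lower in that test, against 6.75% of all genes, and the same 2 lay below EV without overlap, against 8.83% of all genes. DESeq2 and edgeR's exact test each called 1 member, Snai2, in this comparison, where they called 2.36% and 1.65% of genes. In LIP against LAP 1 of 6, Snai2, passed the threshold, against 1.05% of 18166 genes, and 2 of 6, Snai2 and Zeb2, lay below LAP without overlap, against 6.9% of all genes. With the library number as a block 2 of 6 passed, Snai2 and Twist2, where 6.51% of genes did. The comparisons with EV and with LAP share the LIP libraries, so their values are not independent. The median log2 fold change of the 6 members was -0.40 in LIP against EV and -0.28 in LIP against LAP, beside 0.01 and 0.0045 over all genes that averaged 20 counts or more.

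**Figure D3:**
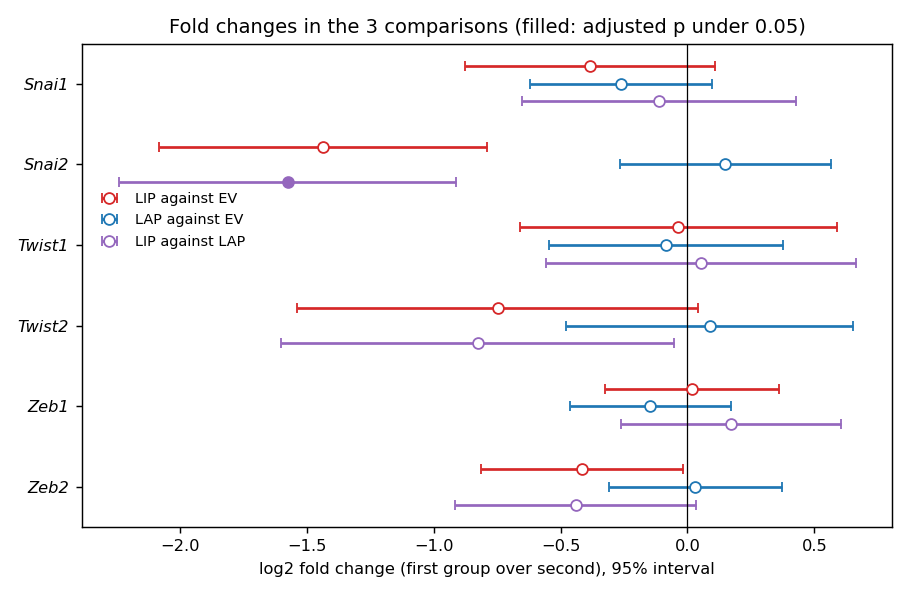
Log2 fold change of each gene (horizontal axis) with its 95% interval in LIP against EV, LAP against EV and LIP against LAP, from edgeR's quasi-likelihood test, with filled points for an adjusted p under 0.05. Snai2 in LIP against LAP, at -1.58, is the only filled point, and all intervals of LAP against EV include 0.

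Between LAP and EV the ranges of all 6 genes overlapped, and Snai2 spread more widely in LAP, from 29.9 to 53.9 CPM, than in EV, with no LAP library inside the EV range of 37.6 to 40.2 CPM. In LAP against EV the log2 fold changes were -0.26 for Snai1, 0.15 for Snai2, -0.08 for Twist1, 0.09 for Twist2, -0.15 for Zeb1 and 0.03 for Zeb2. Snai1, Twist1 and Zeb1 were lower in LAP in all 3 pairs of libraries of the same number. In library 3 the gap was small for Twist1 (64.1 against 64.4 CPM) and Zeb1 (53.3 against 53.75 CPM). The share of all genes lower in all 3 pairs was not computed. Of the 6 genes, 0 passed edgeR's quasi-likelihood test or an unadjusted p under 0.05 in it, against 0.0606% of 18156 genes past the threshold. At an unadjusted p under 0.05, 1.34% of all genes were lower and 1.93% higher. DESeq2 and edgeR's exact test also called 0 of 6, where they called 0.166% and 0.182% of genes. The 95% intervals ran from -0.62 to 0.10 for Snai1, from -0.27 to 0.57 for Snai2 and from -0.48 to 0.65 for Twist2. With 3 libraries a group, changes within those bounds are compatible with the data. Of all genes, 3.61% lay lower and 3.96% higher in LAP than in EV without overlap.

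The 3 libraries of a group were not alike for these genes, and several of them varied together with the library number. Snai1, Snai2 and Twist2 were each highest in library 1 of EV, LAP and LIP, as were 8.03% of the 11535 genes that averaged 20 counts or more. Twist1 was highest in library 3 of every group, as were 11.5% of genes, and Twist2 was lowest there, as were 11% of genes. After removal of the group means, Pearson's r of log2 CPM over the 9 libraries was 0.98 between Snai1 and Snai2, 0.96 between Snai2 and Twist2 and 0.95 between Snai1 and Twist2, while Twist1 had -0.66 with Twist2 and -0.60 with Snai2. These values describe 9 libraries that share depth, processing and library numbers in groups of 3, and no test was made of them. Zeb1 had values between -0.62 and 0.29 with the others.

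Over the 9 libraries, the genes whose log2 CPM followed a member most closely were listed among the 10251 genes that averaged 50 counts or more. For Snai2 they were Ndn (r = 0.992), Prrx1 (r = 0.987), a homeobox factor of mesenchyme, and Fgf7 (r = 0.986), a growth factor made by fibroblasts. For Twist2 they were S1pr1 and S1pr3, receptors of sphingosine 1-phosphate (r = 0.991 and 0.988), and Khdrbs3 (r = 0.991). Twist1 was followed by Usp9x (r = 0.983), Mknk2 (r = 0.977) and Smad6 (r = 0.976), and Snai1 by Adra2a (r = 0.973), Kif5c (r = 0.965) and Ptges (r = 0.963). For Zeb1 the closest genes were Lfng with r = 0.896, Nhlrc2 with 0.892 and Epn1 with 0.880. The values are the highest of many and rest on the same 9 libraries.

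The partners and regulators of these proteins were read from gene lists. Of 7 E protein and Id genes 0 passed edgeR's quasi-likelihood test in LIP against EV. At an unadjusted p under 0.05, 1 was higher, against 4.23% of all genes. Id2, an inhibitor of basic helix-loop-helix dimers, was at 98.3 ± 8.45 CPM in EV against 146.9 ± 38.9 CPM in LIP (SD, n = 3) and had the smallest p of that list (log2 fold change 0.58, adjusted p = 0.257). Id4 was at 8.14 ± 1.16 CPM in EV against 5.55 ± 2.05 CPM in LIP (SD, n = 3), and against LAP it passed with the library number as a block (log2 fold change -0.93, adjusted p = 0.00259 in edgeR's test) but not without it. Tcf3 and Tcf12 had at most 9 counts in a library and Tcf4 at most 50. Each has several transcripts, and whether that lowered the counts was not tested, so their levels are uncertain. Of the 11 corepressor genes of Snail and Zeb proteins that were tested 0 passed, with log2 fold changes between -0.26 for Hdac1 and 0.29 for Limd1, and Smarca4 at 0.18. Of 11 genes of Snail protein turnover 0 passed, with -0.34 for Gsk3b, a kinase that marks Snail for degradation, -0.20 for Lats2 and -0.14 for Ctdsp2. In the corepressor and turnover lists 0 genes had an unadjusted p under 0.05, and DESeq2 and edgeR's exact test called 0 genes in all 3 lists against EV. The 7 hairpins of the miR-200, miR-203 and miR-205 loci had 0 counts in all libraries, which poly(A) libraries of this kind are not made to measure.

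Among other transcription factors linked to mesenchymal transition, Klf8 was higher in LIP than in EV, and Prrx1 was lower in LIP than in LAP. In LIP against EV 1 of 16 passed edgeR's quasi-likelihood test, against 0.396% of all genes. This was Klf8, a Krüppel-like factor that rose from 0.674 ± 0.264 to 3.37 ± 1.56 CPM (SD, n = 3, log2 fold change 2.34, adjusted p = 0.0401 in that test). In LAP, Klf8 was at 1.52 ± 0.435 CPM (SD, n = 3). Its lowest LAP library, at 1.11 CPM, lay above its highest EV library, at 0.959 CPM. Klf8 has 2 curated RefSeq transcripts and 15 to 144 counts in a library, and whether its level is understated was not tested. Prrx1 and Prrx2, homeobox factors of limb and craniofacial mesenchyme, were at 27.0 ± 1.57 and 47.6 ± 6.45 CPM in EV against 14.4 ± 3.52 and 23.96 ± 7.46 CPM in LIP (SD, n = 3). Their log2 fold changes were -0.91 and -0.99, with adjusted p of 0.0863 and 0.0925 in edgeR's test. DESeq2 and edgeR's exact test called Prrx1 and Prrx2 lower as well as Klf8 higher, 3 of 16 each. They called 2.36% and 1.65% of all genes there. Against LAP, Prrx1 fell by 1.09 on the log2 scale with an adjusted p of 0.0452 by the same edgeR test, the only gene of that list past the threshold there without the block, and it lost the call without LAP library 1 or 2 or LIP library 1 or 2 (adjusted p = 0.0617 to 0.185). With the library number as a block 4 of 16 passed against LAP, where 6.51% of all genes did, beside 1.05% without the block. Prrx1 and Prrx2 were lower (-1.10 and -0.97) and Klf8 and Sox4 higher (1.09 and 0.55, adjusted p at most 0.0358 in edgeR's test). Of these genes, Sox4 was chosen after its values were seen. Against EV, Klf8 lost the call without any 1 of the EV libraries or LIP library 2 (adjusted p = 0.0662 to 0.101). Of 6 tested relatives of Snail and Twist genes 0 passed in LIP against EV. At an unadjusted p under 0.05, 1 was lower, against 6.75% of all genes. The log2 fold changes were -0.88 for Hand2 (adjusted p = 0.194 in edgeR's test), 0.48 for Scx and 0.73 for Snai3. DESeq2 called Hand2 lower (adjusted p = 0.0473). In LAP against EV 0 genes of any of these lists passed by edgeR's quasi-likelihood test, DESeq2 or edgeR's exact test.

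The TGF-β pathway induces Snail and Zeb genes in many cells. In LIP against EV 1 of 12 listed genes passed the threshold, against 0.396% of all genes tested. This was Tgfbr3, the betaglycan co-receptor, which fell from 134.3 ± 16.3 to 54.1 ± 20.3 CPM (SD, n = 3, log2 fold change -1.31, adjusted p = 0.0397 by edgeR's quasi-likelihood test). Without EV library 2 or 3 or LIP library 2 its adjusted p was 0.0600 to 0.121. Against LAP its log2 fold change was -1.09 (adjusted p = 0.0603), and with the library number as a block -1.12 (adjusted p = 1.33e-06, both in edgeR's test), while DESeq2 and edgeR's exact test also called it. Tgfb2, a ligand, and Ski, an inhibitor of Smad proteins, had log2 fold changes of -0.71 and -0.49 with adjusted p of 0.307 and 0.325 in edgeR's test. The median over the 12 genes was -0.13 in LIP against EV, beside 0.01 over all genes. In LAP against EV it was -0.14, so the shift of this list was not particular to LIP. In both comparisons 9 of the 12 genes lay below 0.

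Genes of the mesenchymal state lay mostly lower in LIP, as did the fibroblast markers above, several of which are on the same list. Of 20 genes, 18 had a log2 fold change below 0 in LIP against EV, where 47.9% of all genes that averaged 20 counts or more did, with a median of -0.71 beside 0.01 over those genes. The threshold was passed by 1 of 20, against 0.396% of all genes tested. This was Postn, which encodes the matrix protein periostin and fell from 4.07 ± 0.515 to 0.788 ± 0.661 CPM (SD, n = 3, log2 fold change -2.40, adjusted p = 0.0481 by edgeR's quasi-likelihood test). Col1a2, a chain of type I collagen, was at 7675 ± 389 CPM in EV and 3593 ± 1298 CPM in LIP, and Lox, a collagen cross-linking enzyme, at 2469 ± 150 and 1226 ± 487 CPM (SD, n = 3). Their adjusted p were 0.138 and 0.175 in edgeR's test. Against LAP, 1 of 20 passed, again Postn, at -2.06 (adjusted p = 0.0459 by edgeR's quasi-likelihood test), where 1.05% of all genes did. With the library number as a block 12 of 20 passed, all lower, where 6.51% of genes passed in that fit. The number past the threshold against EV was 4 with DESeq2, 3 with edgeR's exact test and 0 to 6 with a library left out. DESeq2 called 2.36% and edgeR's exact test 1.65% of all genes. Without LIP library 2 the median against EV was -0.39 and Postn had an adjusted p of 0.136 in edgeR's test. Leaving out LIP library 1 gave -3.30 against EV and -2.98 against LAP for Postn. Postn also lost the call against EV without EV library 1 or 2 (adjusted p = 0.0588 and 0.161), and against LAP without LAP library 1 or 2 or LIP library 2 (adjusted p = 0.1004 to 0.205). Postn has several RefSeq transcripts and 12 to 151 counts, and whether its level is understated was not tested.

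Epithelial genes, the usual targets of repression by these factors, were not called against EV. With libraries paired by number, 3 of 26 were called higher than in LAP, where 6.51% of all genes passed in either direction. Of 26, 0 passed edgeR's quasi-likelihood test in LIP against EV, 2 were lower and 4 were higher when p under 0.05 was taken without adjustment, against 6.75% and 4.23% of all genes, and DESeq2 and edgeR's exact test called 0. Cdh1, E-cadherin, was at 3.26 ± 0.553 CPM in EV against 1.52 ± 0.854 CPM in LIP (log2 fold change -1.10, adjusted p = 0.292 in edgeR's test), the direction opposite to that of Krt18, at 0.877 ± 0.204 and 1.74 ± 0.586 CPM (SD, n = 3). Esrp2, an epithelial splicing factor, was at 10.9 ± 1.61 CPM in EV against 17.3 ± 2.98 CPM in LIP (SD, n = 3, log2 fold change 0.66, adjusted p = 0.234 in edgeR's test). Against LAP 0 of 26 passed without the block, and 3 passed with the library number as a block, all higher in LIP, where 6.51% of genes passed. These were Dsp, a desmosome protein, at 0.88, Esrp2 at 0.74 and the keratin Krt7 at 0.73 (log2 fold changes, adjusted p = 0.00229, 0.0121 and 0.00897 in edgeR's test), of which Dsp and Krt7 were chosen after their values were seen. Dsp was uneven in LIP, at 79.9 ± 67.3 CPM (SD, n = 3) with a range of 40.0 to 157.7 CPM. That range met the LAP range of 31.6 to 40.8 CPM. The median in LIP against EV over the 10 genes that averaged 20 counts or more was 0.38, and -0.03 without LIP library 3, so its sign rests on that library.

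**Figure D4:**
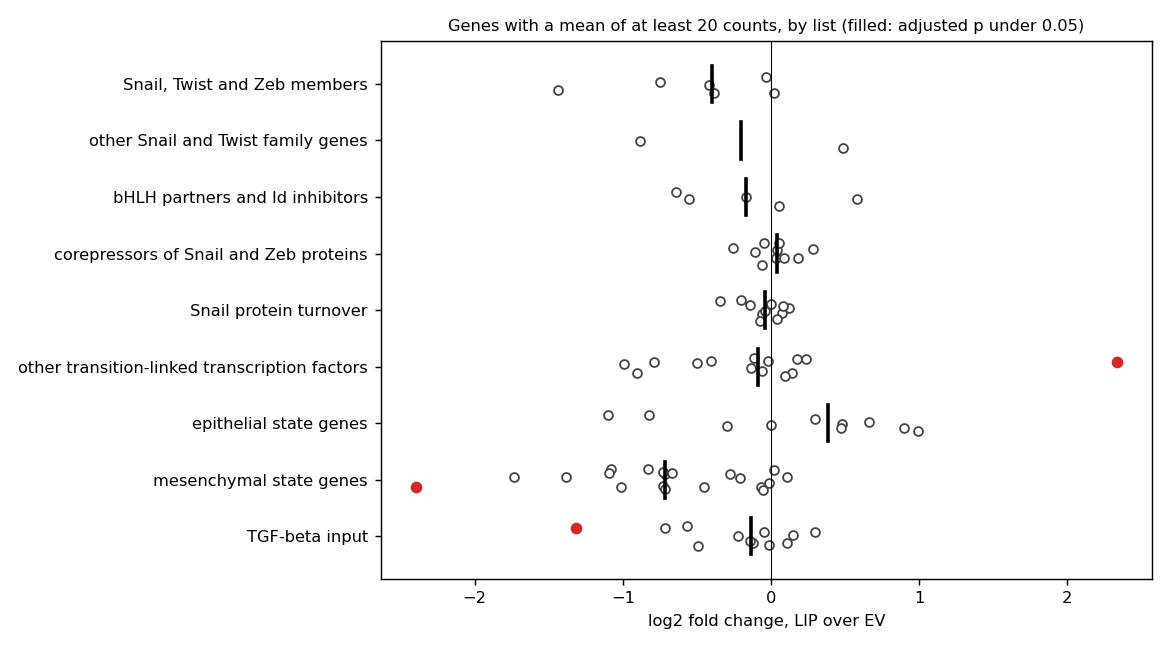
Log2 fold change of LIP over EV (horizontal axis) for each gene that averaged 20 counts or more, by list, with the list's median as a bar and filled points for an adjusted p under 0.05 in edgeR's quasi-likelihood test. Postn and Tgfbr3 are filled on the lower side and Klf8 on the higher, and the medians are -0.71 for mesenchymal state genes and 0.38 for epithelial state genes.

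How far Snai2 depends on the way the counts are processed was followed over 14 alternatives in each comparison with LIP. Its log2 fold change stayed between -1.89 and -1.12 against EV and passed the threshold in 6 of the 14, and it stayed between -2.05 and -1.27 against LAP and passed in 10 of the 14. The direction was the same in all of them. The range of adjusted p was 0.00182 to 0.239 against EV and 2.37e-11 to 0.270 against LAP, in edgeR's or DESeq2's tests with Benjamini-Hochberg adjustment. Both lowest values came from the fit with the library number as a block, which is among the 6 passes against EV. For LIP and EV the numbers were not taken to pair the libraries.

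**Figure D5:**
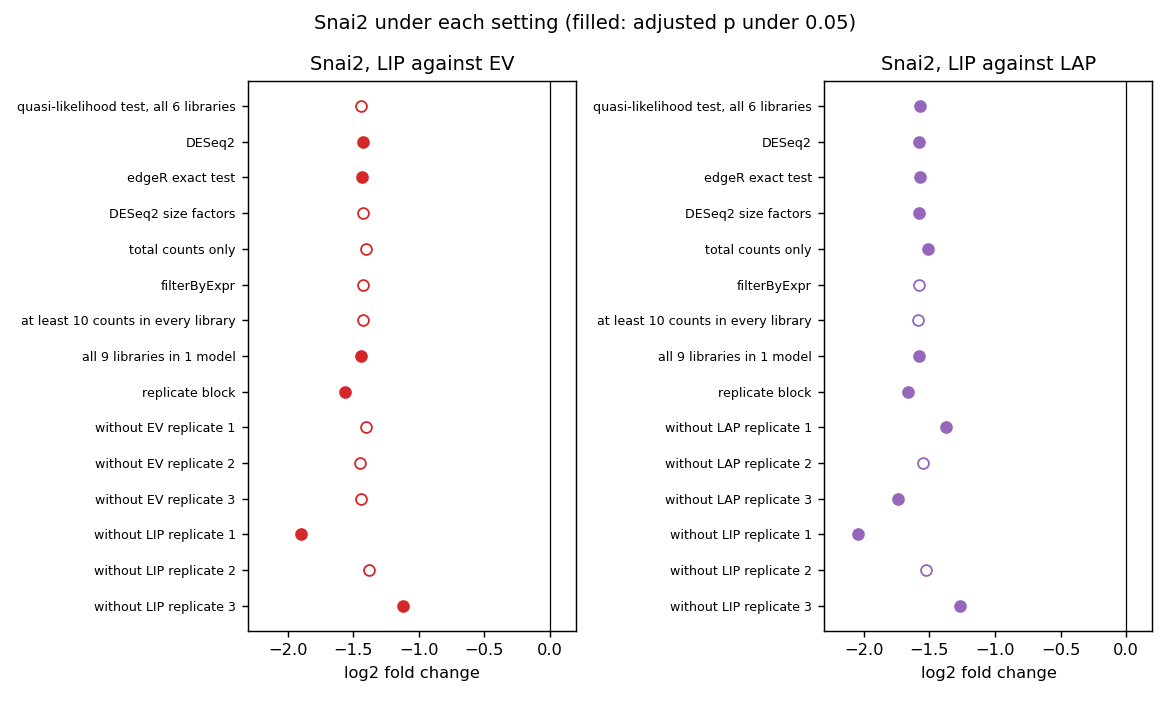
Log2 fold change of Snai2 (horizontal axis) in LIP against EV and in LIP against LAP under the test as reported and 14 alternatives, with filled points for an adjusted p under 0.05. All points lie between -2.05 and -1.12, and leaving out LIP library 1 or 3 gives the extremes in both comparisons.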

How the data were processed

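RNA was sequenced from Cebpb-ko MEFs with EV, LAP or LIP, 3 libraries a group. The authors deposited reads counted per gene (raw counts) by HTSeq 0.5.4 after alignment of 50-base single-end reads with TopHat 1.4.1, without normalization; their text gives mm10 and a RefSeq annotation, and the strand setting is not given in the sources used here. Library totals are in the report. The binomial intervals of the shares and the floors cover counting error only. Intervals of log2 fold changes come from the quasi-likelihood fit and include the spread between libraries. Of 23337 symbols, 20746 were found in RefSeq. Each comparison used its 6 libraries and genes with at least 1 count in them, edgeR 4.0.16 under R 4.3.3 (TMM, quasi-likelihood test, no covariates) and Benjamini-Hochberg adjustment over all genes at 0.05. CPM use TMM factors over all 9 libraries, and log2 CPM for correlations a prior count of 1. A two-sided exact permutation test was run on the CPM of each member. The test was also tried on simulated counts without an effect of library number, and that outcome is not reported here. Figures were drawn with matplotlib 3.10.9. The 6 members and the gene lists were chosen with earlier results of these data known. Named are the members, list genes past the threshold in any comparison, the 3 genes with the smallest p of each list in LIP against EV, and the 3 genes most like each member, of which those of Zeb2 are not reported here.

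Alternatives were DESeq2 1.42.0, the exact test of edgeR, scaling by DESeq2's size factors or by total counts only, a filter by filterByExpr or of at least 10 counts in every library, a single fit of all 9 libraries, the replicate number as a block and each library left out in turn, and list genes were put through them after seeing the data. The labels number the libraries 1 to 3 in each group. Deviations from group means over 11535 genes correlated between libraries of the same number at 0.412 to 0.555 for LIP and LAP, at 0.209 to 0.522 for LAP and EV and at -0.120 to 0.287 for LIP and EV, so the numbers were taken to pair the libraries in the first 2 comparisons only (limit 0.1 for every pair).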

Additional observations from a re-analysis of the deposited data

How the results depend on the processing

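With 14 alternatives per comparison, the sign changes were all in differences close to 0. The number of members past the threshold in LIP against EV was 0 as reported, 1 with DESeq2, the edgeR exact test and all 9 libraries in 1 model, 2 with the replicate block (Snai2 and Twist2, adjusted p = 0.00182 and 0.0375) and 0 to 1 with a library left out. In LIP against LAP it was 1 as reported, 0 with filterByExpr and with at least 10 counts in every library, 2 with the replicate block and 0 to 1 with a library left out. In LAP against EV it was 0 throughout. Deviations of LIP and EV libraries correlated at 0.287, -0.120 and 0.230 for numbers 1, 2 and 3. Number 2 lay under the limit of 0.1, so the block for LIP against EV is given only among the alternatives. Over all genes, the count past the threshold in LIP against EV was 72 as reported, 321 with DESeq2, 301 with the edgeR exact test, 36 with total counts only, 4 with filterByExpr, 0 with at least 10 counts in every library, 467 with the replicate block and 22 to 367 with a library left out (22 without EV 2, 30 without LIP 2, 282 without LIP 1 and 367 without LIP 3). In LAP against EV it was 11 as reported, 26 with DESeq2, 33 with the edgeR exact test, 3 with filterByExpr and with all 9 libraries in 1 model, 0 with at least 10 counts in every library, 54 with the replicate block and 6 to 62 with a library left out. In LIP against LAP it was 190 as reported, 113 with total counts only, 2 with filterByExpr, 0 with at least 10 counts in every library, 1183 with the replicate block and 7 to 448 with a library left out (7 without LAP 2 and 448 without LIP 3). The causes of these shifts were not tested. The calls of Klf8, Postn and Tgfbr3 in LIP against EV and of Prrx1 and Postn in LIP against LAP were all lost with total counts only, with filterByExpr and with at least 10 counts in every library (adjusted p = 0.067 to 0.282), and that of Postn against EV also with DESeq2's size factors (adjusted p = 0.0537).

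Log2 fold changes that changed sign did so mainly when a library was left out. In LIP against EV they ran from -0.47 (without LIP 3) to 0.23 (without LIP 2) for Twist1 and from -0.11 (without LIP 2) to 0.090 (without LIP 1) for Zeb1. In LAP against EV they ran from -0.046 (without LAP 1) to 0.35 (without LAP 3) for Snai2, from -0.35 (without LAP 3) to 0.12 (without EV 3) for Twist1, from -0.25 (without LAP 1) to 0.37 (without LAP 3) for Twist2 and from -0.068 (without LAP 1) to 0.13 (without LAP 2) for Zeb2, which was also at -0.0033 with total counts only. In LIP against LAP they ran from -0.41 (without LIP 1) to 0.12 (without LIP 3) for Snai1 and from -0.39 (without LIP 3) to 0.36 (without LAP 3) for Twist1, which was also at -0.013 with the replicate block. None of these passed the threshold. With 3 libraries a group, the spread of LIP limits what could be called.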
